A study of Mus musculus with 4 samples.

Results

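The set described here holds 42 mouse genes that build collagen: 28 collagen chains, 5 lysyl oxidases, 6 lysyl or prolyl hydroxylases and 3 chaperone or propeptide-processing genes. They were listed by gene symbol under a rule that names no measured value, although earlier results of these data were known when the list was made. Each symbol matched 1 of the 27998 genes in the deposited tables. By structure the chains comprise 8 fibrillar, 3 FACIT (fibril-associated), 8 basement membrane, 6 beaded filament or network and 3 anchoring or transmembrane chains.

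The genes were measured by droplet single-cell RNA sequencing in pancreatic tumors of KPC mice, which carry KrasLSL-G12D/+ and Trp53LSL-R172H/+ with Pdx1-Cre on a C57BL/6J background. Pdx1-Cre recombines in pancreatic epithelium, so the model targets epithelial cells and not fibroblasts. From each of 2 tumors, viable cells of all kinds formed 1 library (all live), and viable cells gated for podoplanin and against CD45, CD31 and EpCAM formed another (sorted CAF, for cancer-associated fibroblasts). The gate is given as in the labels, whose list of stains names no antibody to EpCAM. Every library shares the genotype, and the groups differ in no treatment or time point. The labels give no age for the mice. The labels call the tumors biological replicates and do not say whether animals were pooled.

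Collagens are trimers of alpha chains. Fibrillar chains (types I, III, V, XI and XXVII) assemble into the fibers of the tumor stroma, FACIT chains sit on the surface of those fibers, and type IV, XV and XVIII chains belong to basement membranes. Hydroxylases modify proline and lysine in the endoplasmic reticulum, the chaperone HSP47 (Serpinh1) holds the folded trimer, BMP1 with its enhancer Pcolce removes a propeptide, and lysyl oxidases crosslink the fiber outside the cell. Dense collagenous stroma is a hallmark of pancreatic cancer, and fibroblasts are its usual main source.

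Promoter sequences show how 4 genes on which the results turn differ at their starts. RefSeq windows (build GRCm38.p6, the assembly also called mm10, which the submitters' processing notes name) were found for 31 of the 42 genes. The 250 bases before the start were searched on both strands for the CCAAT box, the GC box (GGGCGG) and the TATA box (TATAAA), with each counted on its own where they overlap. Of the 31 genes, 11 held CCAAT, 22 held GGGCGG and 4 held TATAAA, against 33.8%, 32.7% and 12.4% of all 32851 windows of that length. Col1a2 is shown as a type I chain, Col3a1 because it differed between fibroblast states, and Col4a5 and Col4a6 because both were highest in mesothelial cells. Capitals mark the motif matches on either strand:
Col1a2, chr6:4505368-4505617, plus strand: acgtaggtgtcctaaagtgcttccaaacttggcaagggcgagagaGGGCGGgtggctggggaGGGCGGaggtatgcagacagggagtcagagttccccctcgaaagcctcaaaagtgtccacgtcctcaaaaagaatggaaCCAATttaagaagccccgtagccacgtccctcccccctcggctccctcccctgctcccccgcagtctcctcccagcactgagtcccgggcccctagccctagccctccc
Col3a1, chr1:45311288-45311537, plus strand: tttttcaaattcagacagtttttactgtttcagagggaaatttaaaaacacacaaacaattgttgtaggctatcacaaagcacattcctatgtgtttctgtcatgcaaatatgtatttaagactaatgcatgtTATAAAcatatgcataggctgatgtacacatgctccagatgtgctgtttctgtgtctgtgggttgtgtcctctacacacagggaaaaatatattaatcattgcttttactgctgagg
Col4a5, chrX:141475169-141475418, plus strand: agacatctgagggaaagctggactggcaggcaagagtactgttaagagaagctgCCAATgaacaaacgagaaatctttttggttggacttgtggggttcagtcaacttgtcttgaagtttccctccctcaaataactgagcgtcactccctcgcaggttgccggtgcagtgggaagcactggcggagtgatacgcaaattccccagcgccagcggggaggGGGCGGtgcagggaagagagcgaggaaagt
Col4a6, chrX:141474077-141474326, minus strand: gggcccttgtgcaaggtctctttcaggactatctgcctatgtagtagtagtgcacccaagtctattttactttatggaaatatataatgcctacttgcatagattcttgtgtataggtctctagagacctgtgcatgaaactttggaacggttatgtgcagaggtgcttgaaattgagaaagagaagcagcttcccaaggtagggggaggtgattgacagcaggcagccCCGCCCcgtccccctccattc
The Col1a2 window held CCAAT 109 bases before the start and GGGCGG at 205 and 188 bases, whereas the Col3a1 window held only TATAAA, at 117 bases. Col4a5 and Col4a6 point away from each other, and the stretch from start to start covers 1344 bases on chromosome X. Col4a1 and Col4a2, the pair that led the endothelial chains, also point away from each other, and their annotated transcripts overlap by 22 bases at the starts (chr8:11312805-11312826, plus strand: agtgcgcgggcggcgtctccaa). Those 22 bases lie outside the searched windows of both genes, so the gggcgg in them is neither marked nor counted. A match is a description of the letters and not a site.

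The 4 libraries held 8282 cell barcodes and 85230726 unique molecular identifiers (UMIs, each a counted mRNA molecule), with median depths of 3287 to 13764 UMIs per cell; pairs of libraries shared 4 to 6 barcodes. After filtering, 7821 cells were clustered without any collagen gene, and clusters were named from fixed marker lists. Fibroblasts numbered 142, 179, 119 and 881 in all live tumor 1, sorted CAF tumor 1, all live tumor 2 and sorted CAF tumor 2, and values for 4 libraries follow this order throughout. The sorted CAF library of tumor 1 stood apart from its label: 1056 of its 1386 cells were ductal epithelial, although 1 macrophage or monocyte remained of a class with 456 cells in the matching all live library. All 13 fibroblast markers were detected in every fibroblast library, and all 11 mesothelial markers in the 3 mesothelial libraries with 20 or more cells. All 12 blood endothelial markers were detected in both all live endothelial sums. The same lists named the clusters, and detection alone does not separate the classes. Ductal epithelium of all live tumor 1 also held all 13 fibroblast markers, at 267 CPM summed against 19520 CPM in fibroblasts of that library. The endothelial class differed between tumors: all 5 lymphatic endothelial markers were detected in all live tumor 1 (2826 CPM summed) and 1 of 5 in all live tumor 2 (26.7 CPM), and their part in the endothelial values was not tested. Pericytes numbered 80 in tumor 2 and 4 in tumor 1, so only tumor 2 gave a pericyte sum. Comparisons with pericytes therefore have 1 sum on that side, with its spread borrowed from the other classes, and no replicate check. Levels are UMIs of a gene per 1000000 UMIs of a class (CPM). UMIs are counted at the 3′ end, and CPM is not scaled to gene length. CPM is compared mostly across cells for 1 gene, and ratios between genes across classes. Where genes are ranked within a class, the order is that of UMI counts only.

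Fibroblasts carried the most collagen mRNA, and the mix of chains separated the cell classes. Chain UMIs reached 21220 CPM in the fibroblasts of tumor 1 and 35840 CPM in those of tumor 2. Mesothelial cells, which line the organ surface, had 8864 and 12450 CPM, and pericytes, the mural cells of capillaries, had 13760 CPM in tumor 2. Endothelial cells had 3344 and 4766 CPM, and ductal epithelial cells 340 and 731 CPM. In each tumor the fibroblasts stood above the other classes given here and the epithelium below them, with pericytes ranked in tumor 2 only.

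Fibrillar chains made up 85.9% and 87.0% of the fibroblast chain UMIs in tumors 1 and 2, and 84.7% and 82.4% in mesothelial cells. Basement membrane chains made up 5.35% and 5.32% in fibroblasts (exact binomial 95% intervals 5.16 to 5.54 and 5.25 to 5.39, counting error only). In mesothelial cells they made up 5.70% and 7.62%. Pericytes divided their chain UMIs between fibrillar (50.2%) and basement membrane chains (33.8%). Endothelium was the reverse of fibroblasts, with basement membrane chains at 97.9% and 84.7%. The 2 endothelial cells from the sorted CAF library of tumor 2 held Col1a1 at 519 CPM, against 5.8 and 6.7 CPM in the all live libraries. Over the all live libraries alone the endothelial basement membrane share averaged 97.9%. Ductal epithelium gave 82.8% and 42.1%. By library the epithelial share was 83.5%, 81.8%, 62.6% and 36.6%, so the lowest value was that of sorted CAF tumor 2, and the all live libraries alone were closer, at 83.5% and 62.6%.

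**Figure D1:**
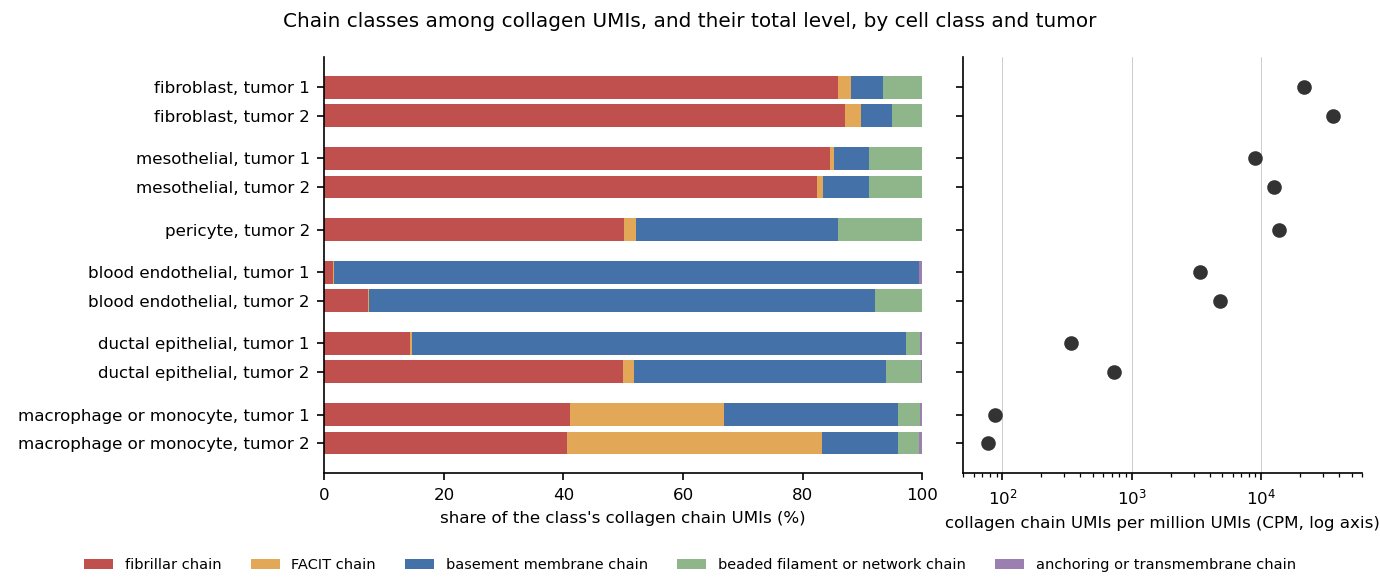
Left, share (%) of each chain class among the collagen chain UMIs of a cell class in a tumor. Right, total chain level (CPM) on a log axis, with 1 point per tumor's summed cells. Fibrillar chains fill most of the fibroblast and mesothelial bars and basement membrane chains most of the endothelial bars.

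Fibrillar chains in fibroblasts were led by Col1a1, Col1a2 and Col3a1. Col1a1 and Col1a2 encode the chains of type I collagen, the main fiber of scar and tumor stroma, and Col3a1 the type III chain found with it. Col1a1 was at 6047, 6269, 6114 and 7895 CPM in the 4 fibroblast libraries. Col3a1 was at 5721, 6222, 12810 and 14350 CPM, so both libraries of tumor 2 lay above both of tumor 1, while the tumors overlapped for Col1a1. The ratio of Col3a1 to Col1a1 UMIs was 0.969 in tumor 1 and 1.83 in tumor 2 (exact intervals 0.948 to 0.992 and 1.82 to 1.85). Col5a2 and Col5a1, type V chains that help set fiber diameter, ran at 686 to 1199 and 356 to 603 CPM. Col11a1 was rare, at 37.2, 21.8, 32.4 and 16.3 CPM.

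Against ductal epithelium, fibroblasts were higher for 33 of the 40 genes tested and lower for 1, where 17.2% of all 13747 genes tested were higher and 15.3% lower at an adjusted p under 0.05. Col10a1, a chain of hypertrophic cartilage, and Col17a1, a hemidesmosome chain with 6 UMIs in the whole series, had too few counts for the test. The median log2 fold change of the 40 genes was 4.59, against -0.10 over all genes. By role, 7 of 8 fibrillar chains, 3 of 3 FACIT chains, 4 of 8 basement membrane chains, 5 of 5 tested beaded filament or network chains, 4 of 5 oxidases, 6 of 6 hydroxylases and 3 of 3 chaperone or processing genes were higher. Lox, a lysyl oxidase, was at 646, 631, 659 and 800 CPM in fibroblasts and at 1.1, 0.9, 1.2 and 8.6 CPM in epithelium (log2 fold change 8.12 ± 0.55 SE, adjusted p = 2.8e-05). Col8a1, a network chain, was higher by 8.48 ± 0.74 (adjusted p = 5.1e-05) and Col5a2 by 8.11 ± 0.63 (adjusted p = 3.2e-05). Col1a1 was higher by 8.08 ± 0.88 (adjusted p = 0.00013). Serpinh1 was at 1763, 1893, 1945 and 2250 CPM in fibroblasts against 192, 217, 51.9 and 147 CPM in epithelium, higher by 3.64 ± 0.40 (adjusted p = 0.00013). Col8a2 and Col11a1 had 1 epithelial UMI each, and their ratios of 1372 and 925 have counting intervals of 245 to 54340 and 165 to 36670.

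The epithelial level of Col1a1 was close to that in macrophages or monocytes of the same library. Col1a1 in epithelium was at 6.2, 6.0, 6.2 and 106 CPM. In macrophages or monocytes it was at 8.1 CPM in all live tumor 1, 6.1 CPM in all live tumor 2 and 82.6 CPM in the 17 cells of sorted CAF tumor 2. In acinar cells, the enzyme-secreting cells of the pancreas, it was at 3.4 and 74.2 CPM in the libraries of tumor 2. The high value of sorted CAF tumor 2, the library with the most fibroblasts, was thus present in each of these classes. A Col1a1 UMI was found in 2.84% of epithelial cells (median 7418 UMIs) and 2.31% of macrophages or monocytes (median 3358 UMIs) of all live tumor 2. At this level an epithelial source of Col1a1 cannot be told apart from background.

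**Figure D2:**
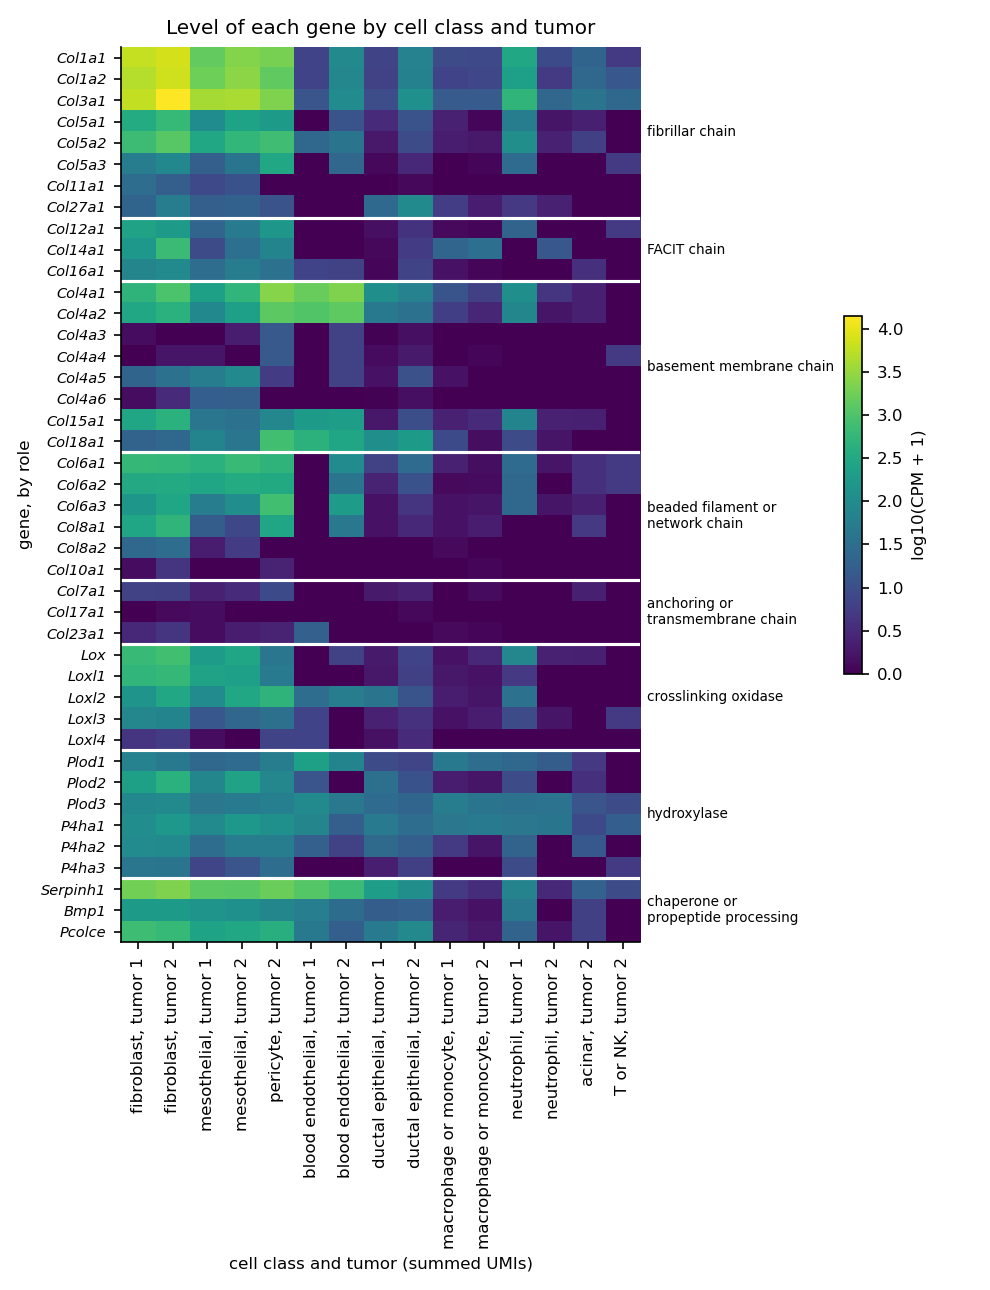
Level of each of the 42 genes, as log10(CPM + 1), in cell classes with at least 20 cells in a tumor, with rows grouped by role. Within a tumor, fibrillar rows other than Col5a3 and Col27a1 are brightest in the fibroblast column. The Col18a1 row is brighter in pericyte, endothelial and epithelial columns than in fibroblast columns.

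Col18a1 went the other way. It encodes the basement membrane collagen whose C-terminal fragment is endostatin. In fibroblasts it was at 18.2, 22.6, 23.0 and 24.4 CPM, and in ductal epithelium at 122, 113, 160 and 198 CPM, with no overlap. All live endothelium had 471 and 280 CPM, and pericytes 838 and 780 CPM in the libraries of tumor 2. It was the only tested gene of the 40 that was lower in fibroblasts than in epithelium (log2 fold change -2.81 ± 0.65, adjusted p = 0.0087). It was also lower than in endothelium (-3.60 ± 0.70, adjusted p = 0.011).

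Col15a1, the close relative of Col18a1, had the opposite order. Its level was 351, 228, 424 and 451 CPM in fibroblasts against 0.6 to 12.6 CPM in epithelium (6.70 ± 0.71, adjusted p = 0.00011). The ratio of Col18a1 to Col15a1 UMIs was 0.070 and 0.054 in fibroblasts of tumors 1 and 2, 9.53 in pericytes of tumor 2, and 134 and 20.7 in epithelium.

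Col27a1 was the fibrillar chain that epithelium carried at a level near that of fibroblasts. It encodes a chain best known from cartilage. Its level was 25.3, 17.0, 60.8 and 54.2 CPM in fibroblasts and 26.3, 23.4, 78.4 and 101 CPM in epithelium. The log2 fold change was -0.59 ± 0.61 with adjusted p = 0.50, and both classes were higher in tumor 2. Macrophages or monocytes of the all live libraries held 4.6 and 0.9 CPM, so the epithelial level lay above the level in that class.

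Col4a1 and Col4a2 form the common type IV trimer of basement membranes, and endothelial cells and pericytes carried the most. Col4a1 was at 1564 and 2195 CPM in all live endothelium and at 2604 and 2438 CPM in pericytes of tumor 2. Fibroblasts had 578, 439, 885 and 947 CPM. Mesothelial libraries with 20 or more cells had 256, 204 and 541 CPM, and epithelium 123, 107, 45.1 and 82.1 CPM. Fibroblasts were higher than epithelium (2.77 ± 0.58, adjusted p = 0.0049). Their differences from endothelium (-1.03 ± 0.54, adjusted p = 0.31) and mesothelium (1.01 ± 0.54, adjusted p = 0.49) did not pass. The ratio of Col4a1 to Col4a2 UMIs was between 1.48 and 2.65 in the tumor sums of these 5 classes. Within fibroblasts it was lower in subcluster 1 of tumor 1 (described below), at 1.05 (exact interval 0.859 to 1.29).

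Col4a5 and Col4a6, X-linked type IV chains, were highest in mesothelial cells. Col4a5 was at 63.8, 47.4 and 86.5 CPM in the 3 mesothelial libraries with 20 or more cells, and at 18.2, 24.2, 35.1 and 33.9 CPM in fibroblasts. Col4a6 was at 18.5, 13.7 and 17.0 CPM in mesothelium and at 2.7 CPM or less in fibroblasts. The ranges did not overlap for either gene, yet neither passed the test between these classes (log2 fold changes of fibroblasts -1.39 ± 0.69, adjusted p = 0.44, and -3.75 ± 0.84, adjusted p = 0.060). Both passed against epithelium, where mesothelium was higher by 4.48 ± 0.80 (adjusted p = 0.0032) and 6.39 ± 0.95 (adjusted p = 0.0024). The ratio of Col4a5 to Col4a6 UMIs was 3.46 and 5.27 in mesothelium and 53.0 and 16.2 in fibroblasts of tumors 1 and 2. The 53.0 rests on 1 Col4a6 UMI (exact interval 9.11 to 2132). In tumor 2 the intervals were 3.01 to 9.85 in mesothelium and 10.7 to 25.6 in fibroblasts, so the pair did not keep a fixed ratio. Col4a3 and Col4a4, the partners of Col4a5 in kidney basement membrane, stayed at or below 1.3 CPM in every fibroblast and mesothelial library. They were at 10.1 to 20.2 CPM in pericytes of tumor 2, where each gene had only 9 UMIs over both libraries.

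Compared with mesothelial cells, fibroblasts were higher for 6 of 40 genes and lower for 0, where 1.70% of all genes were higher and 1.63% lower. By edgeR, 23 of the 40 had an unadjusted p under 0.05. The share of all genes at that looser level is not given here, so the 23 cannot be set against 1.70% and 1.63%. DESeq2 also called 0 lower. The 6 included the FACIT chains Col14a1 (4.46 ± 0.62, adjusted p = 0.0064) and Col12a1 (2.84 ± 0.55, adjusted p = 0.026). Network chains Col8a1 (4.88 ± 0.64, adjusted p = 0.0033) and Col8a2 (3.70 ± 0.72, adjusted p = 0.027) also rose, as did Col15a1 (3.17 ± 0.60, adjusted p = 0.020) and the oxidase Loxl3 (2.31 ± 0.39, adjusted p = 0.012). Col8a1 was at 283, 295, 459 and 532 CPM in fibroblasts and between 5.2 and 23.7 CPM in mesothelium. No fibrillar chain passed: Col1a1 differed by 2.00 ± 0.66 (adjusted p = 0.17) and Col3a1 by 1.13 ± 0.69 (adjusted p = 0.59). Without the tumor as a block 1 gene was higher, Col8a1, and Col14a1 had adjusted p = 0.124, Col12a1 0.116, Col8a2 0.0721, Col15a1 0.0671 and Loxl3 0.0575. Leaving out the all live library of tumor 1 gave 3.

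Mesothelial cells exceeded epithelium for 28 of 40 genes and were lower for 0, where 13.2% and 10.2% of all genes were higher and lower. The median fold change was 3.56, against -0.12 over all genes. Col3a1 was at 4077, 3644, 2412 and 4486 CPM in mesothelium, 13 cells giving the third value, and was higher than in epithelium by 6.58 ± 0.88 (adjusted p = 0.00065). Lox was higher by 6.47 ± 0.52 (adjusted p = 6.8e-05). Fibroblast markers summed to 7946 to 12010 CPM over 13 genes in mesothelial libraries with 20 or more cells, against 14740 to 21320 CPM in fibroblasts; their part in the result was not tested.

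**Figure D3:**
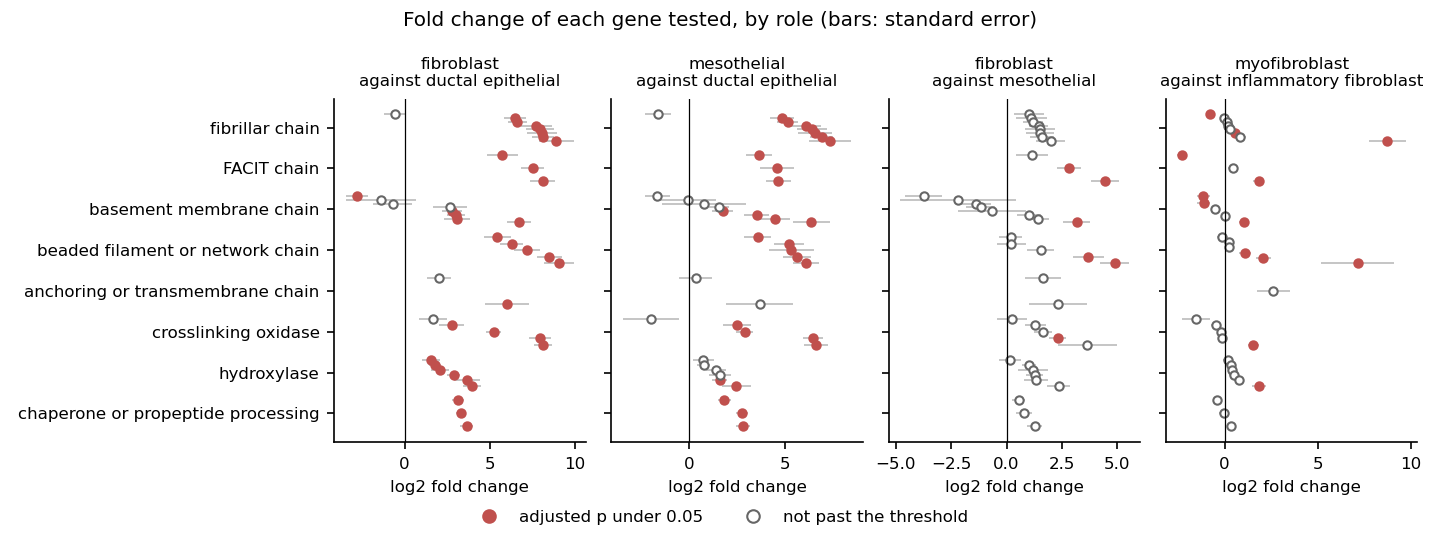
Log2 fold change of each tested gene in 4 comparisons, by role; bars are standard errors and filled points passed an adjusted p under 0.05. Fibrillar chains other than Col27a1 lie far above 0 against epithelium, and none passes between fibroblasts and mesothelium.

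Fibroblasts exceeded endothelium for 21 of 40 genes and were lower for 1, Col18a1, where 4.89% and 4.23% of all genes were higher and lower. The endothelial sums held 21 and 33 cells, so a count of 0 there is a weak limit. Col14a1, Loxl1 and Col12a1 had 0 endothelial UMIs and were at least 69.2-fold, 67.0-fold and 22.5-fold higher in fibroblasts, with 3 counts over both tumors as the floor. Col1a1 was higher by 7.82 ± 0.92 (adjusted p = 0.00077) and Pcolce by 4.73 ± 0.47 (adjusted p = 0.00029). The median of the 40 fold changes was 4.49, and 2.60 with the 9 genes at 0 set to their bound, against 0.30 over all genes. Leaving out the all live library of either tumor gave 11 higher genes. Plod1, a lysyl hydroxylase, was at 227 and 80.1 CPM in all live endothelium and at 75.9, 61.3, 45.9 and 46.9 CPM in fibroblasts, a difference that did not pass (-0.95 ± 0.39, adjusted p = 0.18).

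Against the single pericyte sum, whose spread was assumed to equal that of the other classes, 2 genes came out higher in fibroblasts and 1 lower (Col18a1), where 1.12% and 1.45% of all genes did. The 2 were the crosslinking oxidases Lox and Loxl1. Lox was at 0 and 49.5 CPM in the 19 and 61 pericytes of all live and sorted CAF tumor 2, against the 631 to 800 CPM of fibroblasts (4.82 ± 0.67, adjusted p = 0.0056). Loxl1, an oxidase with a role in elastic fibers, was at 30.3 and 56.6 CPM in pericytes and at 565, 526, 473 and 587 CPM in fibroblasts (3.86 ± 0.76, adjusted p = 0.032). Loxl2, an oxidase that also acts on basement membrane collagen, was at 394 and 513 CPM in pericytes and at 151, 130, 251 and 301 CPM in fibroblasts; the difference did not pass (-0.83 ± 0.82, adjusted p = 0.77). Without the tumor as a block 0 genes were higher, with adjusted p = 0.0686 for Lox and 0.0876 for Loxl1, and leaving out the all live library of tumor 1 gave 1.

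Col6a3, the long chain of type VI microfibrils, and Col5a3 had higher levels in pericytes than in any fibroblast library. Col6a3 was at 666 and 821 CPM in pericytes against 129, 183, 272 and 293 CPM in fibroblasts (-0.88 ± 0.75, adjusted p = 0.72). Col5a3 was at 293 and 317 CPM against 69.6, 39.5, 72.9 and 86.5 CPM (-1.29 ± 0.54, adjusted p = 0.32). Neither difference passed the test. The ratio of Col6a3 to Col6a1 UMIs was 1.57 in pericytes and 0.269 and 0.513 in fibroblasts of tumors 1 and 2.

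The remaining chains and enzymes fell into a broadly stromal and a rare set. Col6a1 and Col6a2, the short chains of type VI collagen, were at 457 to 615 and 282 to 356 CPM in fibroblasts. Mesothelial libraries with 20 or more cells held them at 407 to 665 and 245 to 389 CPM, so these classes overlapped. Col16a1, a FACIT chain, was at 71.0 to 99.9 CPM in fibroblasts and 23.99 to 57.7 CPM in the same mesothelial libraries. Bmp1, the propeptide proteinase, was at 191, 169, 149 and 182 CPM in fibroblasts against 14.8 to 20.04 CPM in epithelium (3.31 ± 0.31, adjusted p = 6.3e-05). Pcolce, its enhancer, was at 694, 744, 579 and 596 CPM against 37.7 to 122 CPM (3.14 ± 0.37, adjusted p = 0.0002). Rare members were Col7a1, the anchoring fibril chain, at 2.7 to 6.3 CPM in fibroblasts, Col23a1, a transmembrane chain, at 1.4 to 3.3 CPM, and Loxl4 at 2.4 to 4.6 CPM.

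Among fibroblasts, 6 subclusters were found, again without collagen genes. Subcluster 0 (146 cells) was cycling. Subcluster 1 (182 cells, led by Chchd10, Gpnmb and Tinagl1) and subcluster 2 (341 cells, led by Spp1, Sema7a and Cspg4) were myofibroblast-like, subclusters 3 (188 cells, led by Cxcl13) and 5 (101 cells, led by Sema3c) inflammatory fibroblast-like, and subcluster 4 (363 cells, with Mmp3 and Sfrp1 among its leading genes) stayed unnamed. The myofibroblasts of tumor 1 were mostly subcluster 1, which rests on 3 markers, and those of tumor 2 mostly subcluster 2, which rests on 7. Markers of macrophages or monocytes, 10 in all, summed to 6592 and 7421 CPM in subcluster 1 of all live and sorted CAF tumor 1, with all 10 and 7 detected. They summed to 745 and 728 CPM in subcluster 2 of the same libraries and to 215 CPM in that of sorted CAF tumor 2. In subcluster 3 of sorted CAF tumor 2 they summed to 1318 CPM. Their part in the results that follow was not tested.

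Unnamed subcluster 4 had the most collagen. Its chain UMIs were at 41250 CPM in tumor 1 (33 cells) and 44410 CPM in tumor 2 (330 cells), against 15630 to 38290 CPM in the other subclusters with 20 or more cells in a tumor. Col1a1 reached 12000 and 11000 CPM there, against 4288 to 7928 CPM elsewhere. Col3a1 had another order in tumor 2: 20220 CPM in subcluster 3, 19500 CPM in subcluster 5, 17350 CPM in subcluster 4 and 9807 CPM in subcluster 2. The ratio of Col3a1 to Col1a1 UMIs was therefore 4.72 and 3.92 in the inflammatory subclusters 3 and 5 and 1.30 to 1.58 in the others of tumor 2. These are levels within clusters drawn from the same cells and carry no test.

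**Figure D4:**
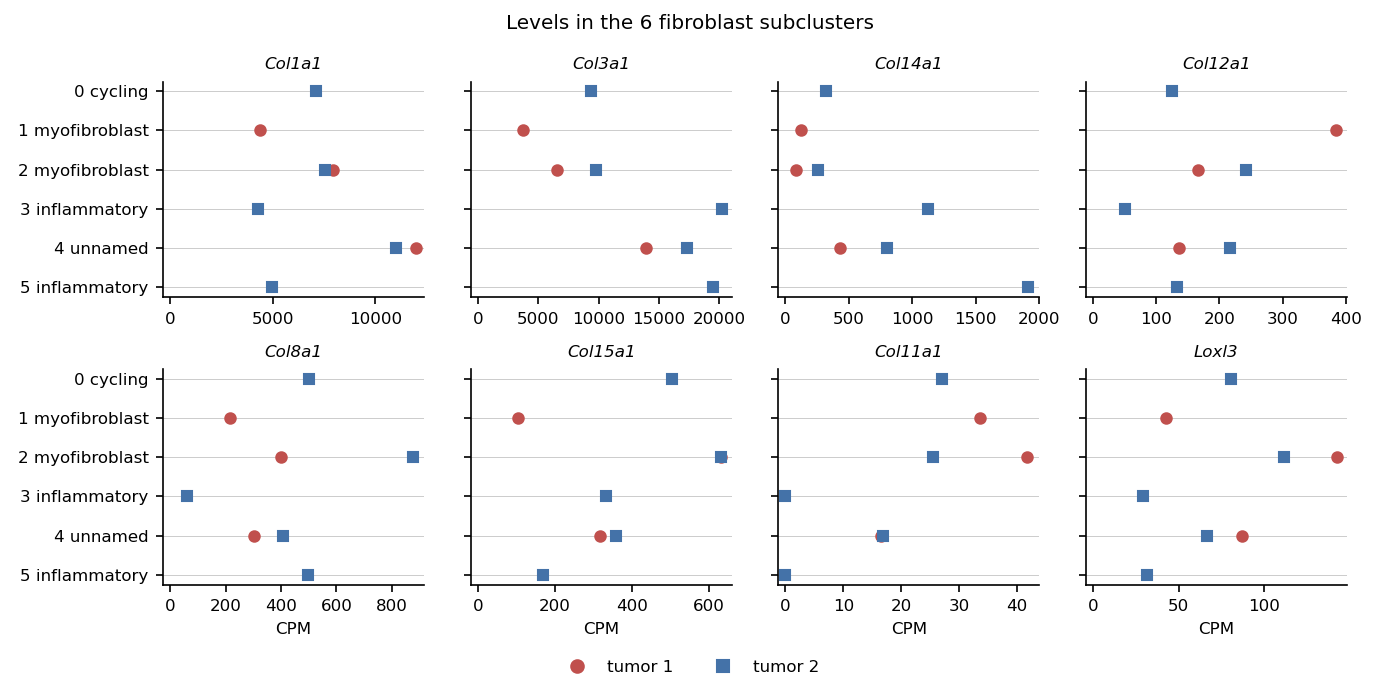
Level (CPM) of 8 genes in the 6 fibroblast subclusters; circles are tumor 1 and squares tumor 2, for sums of 20 or more cells. In tumor 2, Col3a1 and Col14a1 are highest in inflammatory subclusters 3 and 5, where Col11a1 is at 0, and Col1a1 is highest in subcluster 4.

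Chain UMIs were at 19160 and 31030 CPM in myofibroblasts of tumors 1 and 2 and at 17540 and 36830 CPM in inflammatory fibroblasts, so the order of the totals turned between tumors while single chains differed. Of 37 genes tested, 9 were higher in myofibroblasts and 4 lower, where 4.12% and 4.09% of all 11007 genes tested were. The median fold change was 0.25 against 0.02 over all genes. The sums held 242 and 281 myofibroblasts and 31 and 258 inflammatory fibroblasts in tumors 1 and 2. Both states were clustered and named from these same cells, although without collagen genes. The p-values for them here and below do not account for that step.

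FACIT chains separated the states in opposite directions. Col12a1, which binds fibers under tension, was at 301 and 242 CPM in myofibroblasts of tumors 1 and 2 and at 64.2 and 79.0 CPM in inflammatory fibroblasts (1.83 ± 0.28, adjusted p = 3.9e-05). Col14a1, its close relative, was at 109 and 255 CPM in myofibroblasts and at 399 and 1403 CPM in inflammatory fibroblasts (-2.28 ± 0.25, adjusted p = 4.1e-07). Each tumor had the same order for both genes.

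Among fibrillar chains, Col11a1, which nucleates fibers, had 163 UMIs in myofibroblasts and 0 in inflammatory fibroblasts, at least 27.7-fold higher (adjusted p = 9.0e-07). Col3a1 was at 4813 and 9737 CPM in myofibroblasts and 5862 and 19970 CPM in inflammatory fibroblasts (-0.77 ± 0.22, adjusted p = 0.026). Col1a1 was at 5730 and 7512 CPM against 4036 and 4530 CPM (0.56 ± 0.17, adjusted p = 0.038). The Col1a1 direction turned at a finer subclustering (-0.44, adjusted p = 0.58).

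Network chains and 2 enzymes were on the myofibroblast side. Col8a2 was at 25.2 and 32.8 CPM in myofibroblasts against 4.59 and 6.84 CPM (2.08 ± 0.41, adjusted p = 0.0011). The 4.59 CPM rests on 1 UMI, and the tumor 1 log2 ratio had a counting interval of -0.095 to 7.79. Col8a1 was at 286 and 866 CPM against 271 and 215 CPM, so only tumor 2 showed a gap (1.10 ± 0.30, adjusted p = 0.019). Col10a1 had 38 UMIs in myofibroblasts, 37 of them in tumor 2, and 0 in inflammatory fibroblasts, at least 6.47-fold higher (adjusted p = 0.022). Loxl3 was at 80.4 and 110 CPM against 36.7 and 30.01 CPM (1.54 ± 0.29, adjusted p = 0.0007). P4ha3, a prolyl hydroxylase subunit, was at 44.8 and 50.1 CPM against 27.5 and 9.50 CPM (1.83 ± 0.38, adjusted p = 0.0018). Its 27.5 CPM rests on 6 UMIs, and the tumor 1 log2 ratio had a counting interval of -0.479 to 2.192.

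Basement membrane chains were split. Col15a1 was at 305 and 625 CPM in myofibroblasts against 151 and 275 CPM (1.02 ± 0.25, adjusted p = 0.0072). Col4a5 (-1.15 ± 0.35, adjusted p = 0.039) and Col18a1 (-1.10 ± 0.35, adjusted p = 0.047) were lower in myofibroblasts. Col4a5 was at 19.7 and 18.4 CPM in tumor 1, however, and 21.1 and 54.0 CPM in tumor 2, so its gap came from tumor 2. Col18a1 had 6 UMIs in inflammatory fibroblasts of tumor 1, and its log2 ratio there had a counting interval of -1.835 to 0.977.

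Leaving out the sorted CAF library of tumor 2, which holds most of these cells, gave 1 higher and 1 lower gene. With no tumor block 2 were higher and 0 lower, and Col14a1 then had adjusted p = 0.121. With subcluster 2 alone as the myofibroblasts, a choice made after seeing the data, 14 were higher and 4 lower. The shares of all genes called in these fits are not given, so the counts do not measure a stronger or weaker collagen difference.

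Other genes of collagen folding, processing and turnover were tested as a list of 35. Against epithelium, 24 were higher and 1 lower in fibroblasts of 34 tested, where 17.2% and 15.3% of all genes were. Fmod, the collagen-binding proteoglycan fibromodulin, was higher by 8.61 ± 0.68 (adjusted p = 8.2e-05) and Fap, a fibroblast surface protease, by 7.89 ± 0.73 (adjusted p = 9.1e-05), whereas Itga2, part of an epithelial collagen receptor, was lower (-3.98 ± 0.59, adjusted p = 0.00079). Between fibroblasts and mesothelium 6 of 34 were higher and 1 lower, where 1.70% and 1.63% of all genes were. Between myofibroblasts and inflammatory fibroblasts, where 4.12% and 4.09% of all genes were higher and lower, 6 of 31 were higher, among them Fmod (3.67 ± 0.49, adjusted p = 8.1e-06), and 3 lower, among them Pcolce2, another procollagen proteinase enhancer (-2.48 ± 0.24, adjusted p = 7.8e-08).

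Outside the stroma, Col14a1 was the leading chain of macrophages or monocytes in the all live libraries, and neutrophils of tumor 2 also held it. In the all live libraries it reached 21.7 and 32.4 CPM, where Col1a1 was at 8.1 and 6.1 CPM; in fibroblasts of the same libraries Col14a1 was far below Col1a1, at 153 and 789 CPM. A Col14a1 UMI was found in 14.3% of 456 macrophages or monocytes of tumor 1 (exact interval 11.2 to 17.8; median 6778 UMIs), against 0.665% of 1053 epithelial cells with a median of 19072 UMIs. In tumor 2 it was found in 8.70% of 1689 cells (7.40 to 10.2), against 5.11% of epithelial cells (2.37 to 9.48, so the intervals overlap) and 0 of 218 dendritic cells, an exact upper bound of 1.68%. Neutrophils of all live tumor 2 held Col14a1 at 12.7 CPM (18 UMIs), above Col1a1 at 5.6 CPM and below Col3a1 at 16.9 CPM, with a UMI in 3.59% of 474 cells. In the 17 macrophages or monocytes of sorted CAF tumor 2, Col3a1 (174 CPM) lay above Col14a1 (36.7 CPM). With each cell thinned to 1500 UMIs the macrophage or monocyte shares were 3.07% and 4.03%, against 0% and 1.14% in epithelium.

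Hydroxylases differed in how far they reached beyond the stroma. P4ha1, a catalytic prolyl hydroxylase subunit, was at 123, 88.8, 150 and 163 CPM in fibroblasts, 50.2, 55.1, 19.8 and 35.0 CPM in epithelium, and 43.4 and 51.0 CPM in macrophages or monocytes of the all live libraries. P4ha2, another catalytic subunit, was at 81.03 to 115 CPM in fibroblasts and at 4.1 and 0.8 CPM in those macrophages or monocytes. Plod3, a lysyl hydroxylase and glycosyltransferase, was at 99.6, 72.6, 71.6 and 94.6 CPM in fibroblasts and 57.0 and 39.1 CPM in those macrophages or monocytes. Plod2, which hydroxylates telopeptide lysines, was by contrast at 195, 258, 373 and 461 CPM in fibroblasts and at 1.2 and 0.8 CPM in them. Low levels in macrophages or monocytes did not mean that Plod2 and P4ha2 were confined to fibroblasts. In all live tumor 1, fibroblasts held 246 of 1116 Plod2 UMIs and 111 of 760 P4ha2 UMIs. In all live tumor 2 they held 276 of 331 and 60 of 101.

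Sorting was compared within fibroblasts and over whole libraries. Within fibroblasts, 0 of 34 genes were higher and 0 lower in sorted CAF, as were 0% of all 8773 genes tested by edgeR. The 34 had 1 unadjusted p under 0.05 by edgeR, for Col11a1 (-0.92 ± 0.34, adjusted p = 1). DESeq2 called 0 of the 42 genes, with 0 at that unadjusted level. The median fold change was 0.10, against -0.01 over all genes. Col1a1 gave 0.21 ± 0.37 (adjusted p = 1) from the levels above.

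Over whole libraries, 0 of 38 genes passed by edgeR, as did 0% of 14118 genes, with 0 of the 38 at an unadjusted p under 0.05. DESeq2 also called 0 of the genes, with 23 at that unadjusted level, for which the share of all genes is not given here. Col1a1 was at 344 and 350 CPM in all live and at 436 and 5811 CPM in sorted CAF libraries of tumors 1 and 2, so the sorted CAF libraries lay far apart. The median fold change of 2.41 fell to 0.21 without the sorted CAF library of tumor 2 and rose to 3.34 without that of tumor 1. Whole-library values alone cannot tell fewer cells of a type from less RNA per cell. In tumor 2, fibroblasts were 119 of 3324 cells in all live and 881 of 1208 in sorted CAF. The log2 ratio of sorted CAF to all live there was 4.05 over whole libraries and 0.37 within fibroblasts for Col1a1, and 3.87 and 0.28 for Lox.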

How the data were processed

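The deposited files hold UMI counts per gene and cell barcode, made by the authors with Cell Ranger 2.0.0 and CASAVA 1.4 on mm10, per the submitters' processing notes. Barcodes under 500 genes or over 10% mitochondrial UMIs were removed, and 163 barcodes were left out by doublet score at 0.8% per 1000 barcodes (the caller's own threshold marked 40). Cells were clustered with scanpy 1.11.5 (2000 variable genes, 30 components, 15 neighbors, Leiden resolution 1, and 0.5 within fibroblasts) without the 42 genes, and named from 18 marker lists with 1 marker missing from the table. Raw counts were summed per tumor and class where 20 or more cells were present (11 class sums, 4 residual degrees of freedom; 7 fibroblast state sums, 2) and tested with edgeR 4.0.16's quasi-likelihood test, with the tumor as a block, TMM scaling, its default filter on low counts and Benjamini-Hochberg adjustment over all genes tested. Sorted CAF and all live were compared over 4 libraries without a block. Libraries of the same number come from the same tumor, per the tumor code that opens the description label of each (1 code per number), and their deviations correlated at 0.657 (8773 genes, fibroblasts) and 0.712 (14118 genes, whole libraries). Alternatives were DESeq2 1.42.0, RLE scaling, no filter, other resolutions, kept doublets, other blocks and each library left out. Shares of all genes called are given for the main fits and not for these alternatives. The test was also run on simulated counts, and the outcome is not given here. Intervals (95%) and floors of 3 counts cover counting error only. Classes and fibroblast states were defined in the same cells that were tested, which the p-values do not account for. Where nothing ties a tumor to its own animal, p-values measure the spread between these samples, which may be technical. All 42 genes are accounted for by role; test values are given for genes past the threshold (at most 12 of largest change per direction), some others, chosen after their values were seen, and at most 3 pathway genes per direction. The members and lists were chosen with earlier results of these data known.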

Additional observations from a re-analysis of the deposited data

Results flagged for a closer look

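In several members the tumors moved in opposite directions by more than the counting error of either; the differences between tumors were not tested. Over whole libraries of sorted CAF against all live, the log2 ratio was -0.37 in tumor 1 and 3.59 in tumor 2 for Col15a1, and -0.12 and 2.87 for Col4a2. For the lysyl hydroxylases it was -0.57 and 0.73 for Plod1 and -0.20 and 1.18 for Plod3. The sorted CAF library of tumor 1 is the one with 1056 epithelial cells among 1386. Within fibroblasts, Plod3 gave -0.46 in tumor 1 and 0.40 in tumor 2. Col6a1, a type VI chain, gave 0.36 and -0.14 for fibroblasts against mesothelium. Col6a3 gave -0.52 and 0.23 for myofibroblasts against inflammatory fibroblasts.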

How the results depend on the processing

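Small sums limit what can be called: endothelium gave 171968 and 178773 UMIs, and the inflammatory fibroblasts of tumor 1 gave 218019. Of the values for single genes, 713 kept their direction and side of the threshold, 89 lost the threshold, 5 moved by more than counting error and 1 turned. Counts below give members called, and the cause of each shift was not tested. The shares of all genes called under these settings are not given. A shift in the members therefore cannot be told apart from a shift in all genes.

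Higher in fibroblasts than in mesothelium (6): 20 with no filter, 1 with no replicate block, 3 with only all live or only sorted CAF libraries, 17 with sums per library, and 3 to 6 leaving out a library. Lower (0): 1 with doublets kept, at either other resolution, with no filter or with sums per library. Higher than in endothelium (21): 11 to 22 leaving out a library. Lower (1): 2 with no filter or sums per library. Higher than in pericytes (2): 5 by DESeq2 or with sums per library, 14 with no filter, 0 with no replicate block, 1 with only sorted CAF libraries, and 1 to 2 leaving out a library. Lower (1): 3 with no filter. Lower in mesothelium than in epithelium (0): 2 with no filter, only sorted CAF libraries or sums per library, and 0 to 2 leaving out a library.

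Higher in myofibroblasts (9): 4 by DESeq2, 2 at higher resolution, 14 with the most marked subcluster only, 2 with no replicate block, and 1 to 10 leaving out a library. Lower (4): 1 by DESeq2, with doublets kept or at lower resolution, 2 at higher resolution, 0 with no replicate block, and 1 to 4 leaving out a library. Col1a1 turned to -0.44 at higher resolution. The fibroblast basement membrane share (mean 5.34%) was 6.04% in all live and 4.87% in sorted CAF libraries, and 4.88% to 5.80% leaving out a library. With the tumor as a replicate block the sort comparisons still called 0 members. RLE scaling moved the median of all genes by about 0.11 (log2) against epithelium.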

Other observations

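Epithelial clusters of tumor 1 differed in collagen enzymes, given as levels with no test because clusters come from the same cells. Plod2 was at 52.2 CPM in the cluster led by Cyp2s1 and Adh7 and 43.7 CPM in that led by Npy and Cpe, against 11.97 CPM in that led by Fabp2 and Tff1. Loxl2 was at 55.2, 71.7 and 16.4 CPM in the same order. Col27a1 was at 17.9, 73.7 and 4.4 CPM.

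Neutrophils of all live tumor 1 had 413 chain UMIs in 34 cells, and 399 of them came from 1 cell. Their chain level was 1621 CPM with that cell and 59.4 CPM without it.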
